A study of Mus musculus with 2 samples.

Results

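The enzymes and binding proteins that add, remove and read acyl groups on lysine were examined for peaks of H3K9bhb, histone H3 β-hydroxybutyrylated at lysine 9. The list holds 52 mouse genes chosen by their known function, with earlier results of these data known: 11 acyltransferases, 18 deacylases, 12 bromodomain or YEATS readers, 2 enzymes of acyl-CoA synthesis, 4 corepressor proteins and 5 ING proteins. Each gene was searched from 5 kb before to 5 kb after its annotated ends, and 1 summit in that span counted as a peak. By that rule 13 of the 52 genes (25%, exact 95% binomial interval 14.0 to 38.9) had a peak, beside 11.4% of all 21900 protein-coding genes. A longer gene gives a longer span to search, and length was not matched. The median length was 27.6 kb in members with a peak and 32.4 kb in those without. For all protein-coding genes it was 31.3 kb and 15.8 kb. Whether length accounts for the members' share was not tested.

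The cells were splenocytes of OT-I mice, which carry a transgenic T cell receptor for an ovalbumin peptide, on the C57BL/6 strain. They received 200 ng/ml of the peptide with 10 ng/ml interleukin-2 over 3 days, then 10 ng/ml interleukin-15 over 4 days to give memory-type CD8+ cells, and β-hydroxybutyrate (BHB) for 3 days. The series holds 1 chromatin immunoprecipitation (ChIP) library and 1 input DNA library, each stated as 70 M reads, and the values here are the peak list of the ChIP library. Untreated cells and a replicate ChIP were not analysed here, so a peak is a place called in BHB-treated cells of 1 culture, no difference was tested, and intervals cover counting error only. The list holds 2315 summits in 2204 peaks with a median score of 5.04 and quartiles of 3.33 and 6.78, the score being −log10 of the peak caller's p or q value. It also holds 9 peaks on the mitochondrial genome, which has no histones. None (0) of 25 marker genes of T, B, myeloid and NK cells, among them Cd3e, Cd8a and Cd8b1, had a peak, so the list offers no check of the labelled cell type (3 counts of the total, the limit a count of 0 leaves, would be 12.0%). The exact upper limit of 13.7% is above the 11.4% of all protein-coding genes, so this absence is not informative about the mark at marker genes.

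Lysine acylation is written by acyltransferases from acyl-CoA, removed by zinc-dependent histone deacetylases (HDACs) and NAD-dependent sirtuins, and bound by bromodomains and YEATS domains. β-Hydroxybutyrylation is the form derived from the ketone body BHB. The acyltransferase p300 is known to add it, HDAC1, HDAC2 and SIRT3 are known to remove it, and BHB itself is known as an inhibitor of class I HDACs. HDAC1 and HDAC2 act in corepressor complexes built on SIN3, CoREST or NuRD proteins, and ING proteins guide both acyltransferase and deacetylase complexes to methylated H3.

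All 13 genes had a summit within 1 kb of a transcription start, and the sequence at some of these starts is printed below. The printed windows are shorter than that distance, so not every summit falls inside one. RefSeq promoter windows run from 250 bases before to 50 bases after an annotated start, in build GRCm38.p6 (mm10). For 5 members a summit lay inside a window, and 1 such window of each is printed. They are Sirt1 (chr10:63338986-63339285, minus strand), Brd2 (chr17:34122558-34122857, minus), Brd9 (chr13:73937561-73937860, plus), Ing1 (chr8:11556207-11556506, plus) and Ing5 (chr1:93803715-93804014, plus). Hat1 (chr2:71389010-71389309, plus) is added for the highest score among the members. Hdac9 (chr12:34917046-34917345, minus) has no peak and is added as the member window with the fewest CpG dinucleotides. Capitals mark matches on either strand to the short motifs listed further on, and the windows are written 5′ to 3′.
Sirt1: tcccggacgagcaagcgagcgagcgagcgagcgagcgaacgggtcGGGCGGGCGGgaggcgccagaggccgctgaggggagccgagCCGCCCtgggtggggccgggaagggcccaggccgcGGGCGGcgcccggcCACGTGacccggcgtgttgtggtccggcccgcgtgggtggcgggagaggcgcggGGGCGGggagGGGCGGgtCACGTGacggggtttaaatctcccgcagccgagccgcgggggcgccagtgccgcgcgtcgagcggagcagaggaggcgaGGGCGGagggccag
Brd2: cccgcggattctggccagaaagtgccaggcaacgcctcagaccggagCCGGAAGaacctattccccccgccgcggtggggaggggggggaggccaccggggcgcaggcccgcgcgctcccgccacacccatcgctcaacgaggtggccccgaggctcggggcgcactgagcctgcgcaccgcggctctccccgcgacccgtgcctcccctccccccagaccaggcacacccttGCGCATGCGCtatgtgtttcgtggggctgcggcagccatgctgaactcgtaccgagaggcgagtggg
Brd9: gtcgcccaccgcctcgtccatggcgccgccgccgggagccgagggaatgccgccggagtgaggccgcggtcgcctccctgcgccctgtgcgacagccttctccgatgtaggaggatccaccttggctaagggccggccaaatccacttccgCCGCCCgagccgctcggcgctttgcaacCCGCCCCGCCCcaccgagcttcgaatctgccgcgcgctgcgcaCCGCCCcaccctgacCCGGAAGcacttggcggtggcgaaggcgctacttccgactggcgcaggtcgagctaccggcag
Ing1: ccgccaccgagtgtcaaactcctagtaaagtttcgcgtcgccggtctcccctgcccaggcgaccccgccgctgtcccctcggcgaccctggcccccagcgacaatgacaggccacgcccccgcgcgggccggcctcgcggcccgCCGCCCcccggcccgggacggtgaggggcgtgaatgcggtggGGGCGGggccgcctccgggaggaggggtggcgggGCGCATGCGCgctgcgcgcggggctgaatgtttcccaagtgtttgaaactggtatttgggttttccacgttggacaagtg
Ing5: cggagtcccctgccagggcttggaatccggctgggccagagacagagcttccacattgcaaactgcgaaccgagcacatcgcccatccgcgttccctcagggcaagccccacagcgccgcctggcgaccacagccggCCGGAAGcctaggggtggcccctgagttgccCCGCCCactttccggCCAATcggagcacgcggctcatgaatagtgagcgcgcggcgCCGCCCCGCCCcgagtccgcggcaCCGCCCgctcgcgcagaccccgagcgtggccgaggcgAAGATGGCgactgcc
Hat1: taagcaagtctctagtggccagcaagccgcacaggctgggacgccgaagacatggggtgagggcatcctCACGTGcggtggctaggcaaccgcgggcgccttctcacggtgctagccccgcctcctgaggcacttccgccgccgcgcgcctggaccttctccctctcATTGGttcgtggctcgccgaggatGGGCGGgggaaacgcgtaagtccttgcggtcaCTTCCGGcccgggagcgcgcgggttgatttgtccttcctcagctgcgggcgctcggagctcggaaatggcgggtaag
Hdac9: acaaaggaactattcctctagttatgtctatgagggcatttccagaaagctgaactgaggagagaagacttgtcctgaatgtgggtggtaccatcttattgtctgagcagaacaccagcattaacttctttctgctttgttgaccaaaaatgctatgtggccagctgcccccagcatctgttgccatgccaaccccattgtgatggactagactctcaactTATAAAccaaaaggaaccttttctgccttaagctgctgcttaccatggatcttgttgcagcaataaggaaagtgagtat
Counted from 1 at the first printed base, the summit was base 183 in Sirt1, 143 in Brd2, 118 in Brd9, 262 in Ing1 and 158 in Ing5. The Hat1 summit lay beyond the printed window, 234 bp after the start. The Sirt1 window held 47 CpG dinucleotides and the Hdac9 window none (0).

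**Figure D1:**
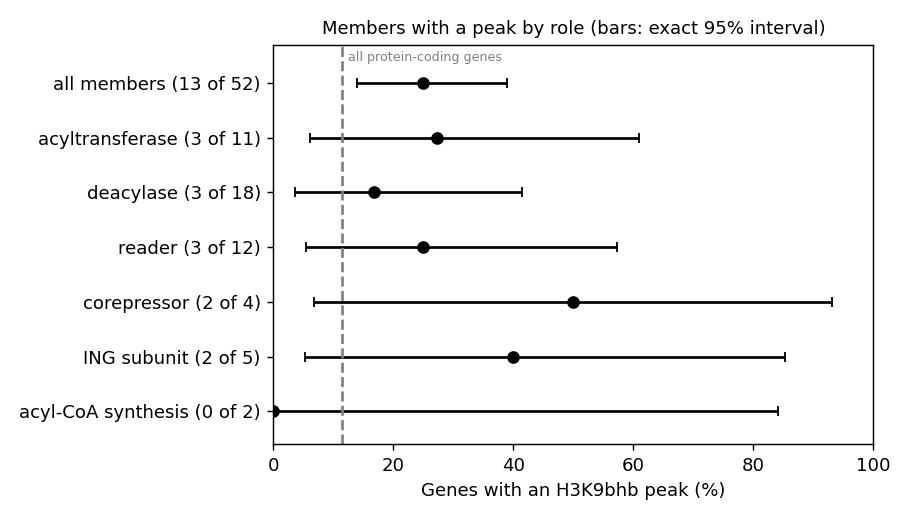
Share of genes with an H3K9bhb peak (%) for all 52 members and for each role, with exact 95% binomial intervals as bars and the 11.4% of all protein-coding genes as a dashed line. The interval of all members is 14.0 to 38.9%, and each of the 6 role intervals drawn contains the line. Corepressor and ING genes are drawn apart, and joined their interval is 13.7 to 78.8%. The intervals cover counting error only and are no test against the line. The genes were chosen with earlier results of these data known.

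Among the acyltransferases, 3 of 11 had a peak (27.3%, interval 6.02 to 61.0). Hat1 (chromosome 2, 71389260 to 71441622) had the highest score of all members. HAT1 acetylates newly made histone H4 before it enters chromatin. Its summit at 71389494, 234 bp downstream of the start, scored 10.5, a value that 7.21% of the peaks reached. Crebbp (chromosome 16, 4081334 to 4213957) encodes CBP, the paralog of p300. Its summit at 4214152 scored 6.83 and lay 748 bp upstream of the listed start, but only 195 bp outside the annotated end of the gene. A second summit at 4077669 (4.27) was within 5 kb of the other end of Crebbp and 141 bp from the start of Trap1, a mitochondrial chaperone. Kat14 (chromosome 2, 144369032 to 144407675), an acetyltransferase subunit of the ATAC complex, had a summit at 144369096, 64 bp downstream of its start, which scored 5.41. The start of Pet117, a factor of cytochrome oxidase assembly on the same strand, is 49 bp from that of Kat14, so this summit cannot be assigned to either gene.

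The other 8 acyltransferases had no peak. They include Ep300, which encodes p300 and whose closest summit was 159 kb away, and both GNAT enzymes, Kat2a (290 kb) and Kat2b (2368 kb). None (0) of the 5 MYST enzymes had one: Kat8, an H4K16 acetyltransferase, was 41.8 kb from a summit, Kat5 (TIP60) 41.9 kb, Kat7 (HBO1) 150 kb, Kat6a 215 kb and Kat6b 423 kb. The exact upper limit for 0 of 5 is 52.2%, so the absence over this group is not informative at its size.

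Among the deacylases, 3 of 18 had a peak (16.7%, interval 3.58 to 41.4), and all 3 scored below the median of the list. Hdac11 (chromosome 6, 91156670 to 91174692), the class IV enzyme known to remove long fatty acyl groups, had a summit at 91156921, 106 bp downstream of a start, which scored 4.54. Hdac2 (chromosome 10, 36974297 to 37001889), a class I enzyme, had a summit at 36974666, 122 bp downstream of its start, with a score of 4.09. Sirt1 (chromosome 10, 63319005 to 63339035), the nuclear NAD-dependent deacetylase, had a summit at 63339103, 68 bp upstream of its start. The score was 2.49, reached by 92.2% of the peaks.

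No peak was found at the remaining 15 deacylases. In class I these were Hdac1, the partner of HDAC2 in corepressor complexes and 130 kb from a summit, Hdac3, the NCoR-bound enzyme (257 kb), and Hdac8 (32.9 kb). All 4 class IIa genes, Hdac4, Hdac5, Hdac7 and Hdac9, and both class IIb genes, Hdac6 and Hdac10, had none. The exact upper limits are 60.2% for 0 of 4 and 84.2% for 0 of 2, so these absences are not informative at this size. Hdac6 and Hdac8 lie on the X chromosome, where 18 of 966 protein-coding genes (1.86%) had a peak. Of the 7 sirtuins, 6 had none: the mitochondrial Sirt3 (445 kb), Sirt4 (16.4 kb) and Sirt5 (61.7 kb), the mainly cytoplasmic Sirt2 (450 kb), and the nuclear Sirt6 (46.4 kb) and Sirt7 (48.2 kb). The share of sirtuins with a peak was 14.3% (interval 0.361 to 57.9), near the 11.4% of all protein-coding genes.

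Of the readers, 3 of 12 had a peak (25%, interval 5.49 to 57.2), and all 3 encode bromodomain proteins (3 of 8), with 0 of 4 YEATS genes. Brd9 (chromosome 13, 73937801 to 73960895), a subunit of a BAF-type remodelling complex, had a summit at 73937678 that scored 10.2, reached by 7.80% of the peaks. This place lay 133 bp upstream of the Brd9 start and 89 bp downstream of a start of Trip13, a checkpoint ATPase transcribed the other way, whose start is 44 bp from that of Brd9. Brd9 had a second, weaker summit at 73960605 (3.08), which lay 290 bp before the end of its transcript. Brd1 (chromosome 15, 88687034 to 88734228), a scaffold of MYST acetyltransferase complexes, had a summit at 88733478, 741 bp downstream of its start, which scored 5.98. Brd2 (chromosome 17, 34112019 to 34122814), a BET protein that binds acetylated H4, had a summit at 34122715 with a score of 4.54. That summit lay between divergent starts, 108 bp upstream of a Brd2 start and 117 bp from a start of H2-DMa, a subunit of the class II peptide-loading factor.

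The readers without a peak were Brd3, the BET relative of Brd2 (18.8 kb from a summit), Brd7 of the PBAF complex (57.4 kb), Brd8 of the TIP60 complex (307 kb), and the MYST scaffolds Brpf1 (230 kb) and Brpf3 (109 kb). The YEATS genes were Yeats4 (66.5 kb), Mllt1 (219 kb), Yeats2 (266 kb) and Mllt3 (896 kb). Their proteins are known to bind acyl groups bulkier than acetyl, and the exact upper limit for 0 of 4 is 60.2%.

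Corepressor and ING genes held 4 of 9 (44.4%, interval 13.7 to 78.8). Both SIN3 scaffolds were among them. Sin3b (chromosome 8, 72723270 to 72758203) had a summit at 72723433, 163 bp downstream of its start, which scored 5.26. Sin3a (chromosome 9, 57071991 to 57128368) had a summit at 57072328, 288 bp downstream of its start, which scored 3.17; a long non-coding RNA, Gm10658, starts 74 bp from the Sin3a start on the other strand. Ing1 (chromosome 8, 11555762 to 11563251), a subunit of the SIN3 deacetylase complex, and Ing5 (chromosome 1, 93803926 to 93822101), a subunit of MYST complexes, had summits at 11556468 and 93803872. Both scored 2.08, near the low end of the list, a value that 98.5% of the peaks reached. The Ing1 summit lay 11 bp downstream of an inner start, 1 of 5 listed for that gene, and 706 bp inside the annotated end.

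No peak was found at Ncor1, the scaffold of HDAC3 (66.7 kb), at Rcor1, the CoREST scaffold (150 kb), or at Ing2 (38.9 kb), Ing4 (74.4 kb) and Ing3 (380 kb). The enzymes that make acetyl-CoA in nucleus and cytosol, Acly from citrate (61.9 kb) and Acss2 from acetate (129 kb), had none (0 of 2, exact upper limit 84.2%). Among close relatives, both SIN3 genes had a peak. Crebbp had one where Ep300 did not, as did Hdac2 and not Hdac1, Brd2 and not Brd3, and Brd9 and not Brd7. A call at 1 paralog alone does not show that signal at the other was lower, because signal below the threshold was not analysed here.

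**Figure D2:**
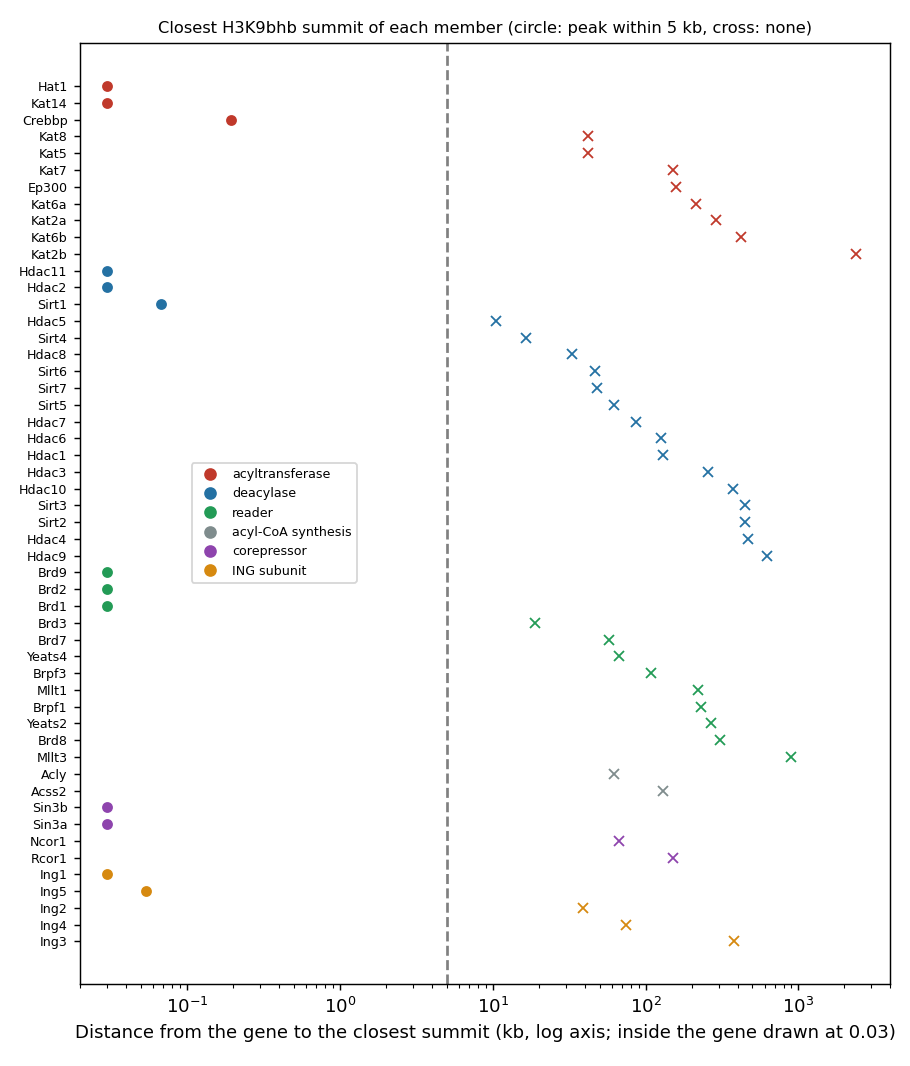
Distance in kb, on a log axis, from each of the 52 genes to its closest H3K9bhb summit, coloured by role; circles are genes with a peak, crosses genes without, summits inside a gene are drawn at the left edge and the dashed line marks 5 kb. No member lies near the line: the farthest gene with a peak is Crebbp at 195 bp and the closest without is Hdac5 at 10.5 kb.

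The 5 kb limit did not decide any member. The closest of the 39 genes without a peak was Hdac5, a class IIa deacetylase, 10.5 kb from a summit that was itself 976 bp from an end of Lsm12. Sirt4, a mitochondrial sirtuin, followed at 16.4 kb and Brd3 at 18.8 kb. In all, 9 of the 39 (23.1%) had a summit within 50 kb, the others being Hdac8, Ing2, Kat8, Kat5, Sirt6 and Sirt7, beside 14.5% of the 19411 protein-coding genes without a peak. The median distance was 130 kb for these members and 289 kb for those genes.

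**Figure D3:**
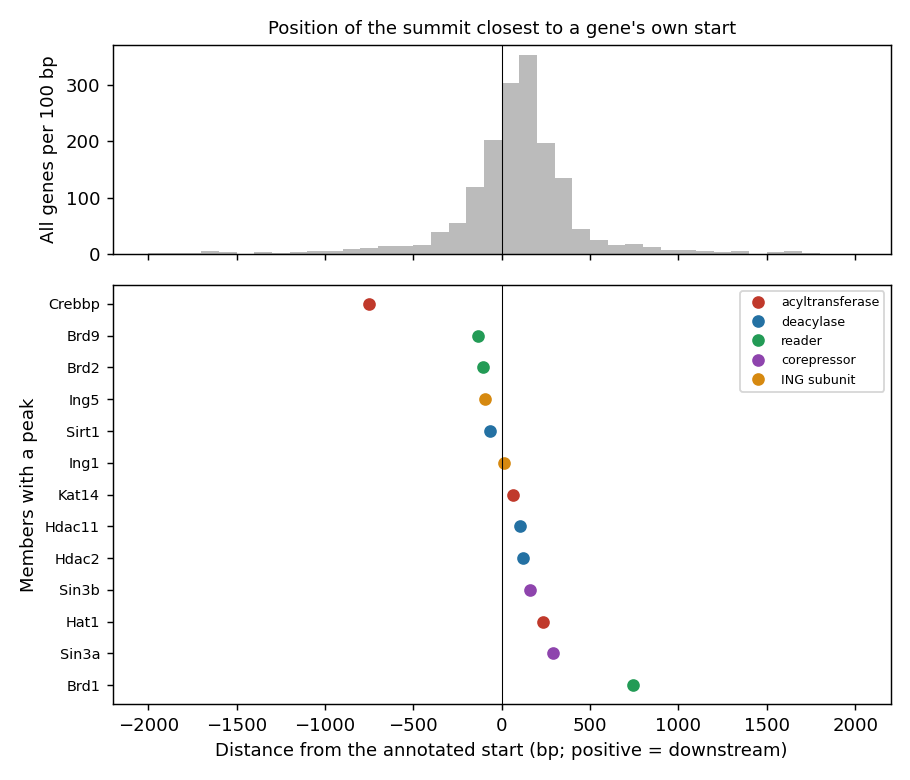
Position of the summit closest to a gene's own annotated start, in bp with positive values downstream: above, all 1676 protein-coding genes with a summit within 2 kb, counted per 100 bp; below, the 13 members by role. All members but Crebbp and Brd1 lie within 300 bp of a start.

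Every member with a peak had a summit within 1 kb of one of its own starts, and 11 of the 13 had one within 300 bp. The positions ran from 748 bp upstream (Crebbp) to 741 bp downstream (Brd1), with a median of 64 bp downstream. In 8 genes the summit lay downstream of the start and in 5 upstream. Over all genes with a peak and a listed start, 79.0% had a summit within 1 kb of it. The genes with a summit within 2 kb had a median position of 102 bp downstream and quartiles of −41 and 230 bp. Counted by that window, 13 of the 47 members with a listed start (27.7%, interval 15.6 to 42.6) had a peak, beside 9.58% of 17492 protein-coding genes. No promoter entry was matched for Hdac1, Hdac3, Hdac10, Kat6a and Brd8.

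Some of the marked members share their start region with another gene. In 5 of the 13 the start of another gene lay within 1 kb of the summit: Pet117 at Kat14, Trip13 at Brd9 and H2-DMa at Brd2, which encode proteins, and the long non-coding RNAs Gm41377 at Brd1 and Gm10658 at Sin3a. Over all 1676 genes with a summit within 2 kb of a start the share was 27.3%, so the 5 of 13 show nothing particular to the members. Summits carry no strand, so signal from such neighbours cannot be told apart.

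**Figure D4:**
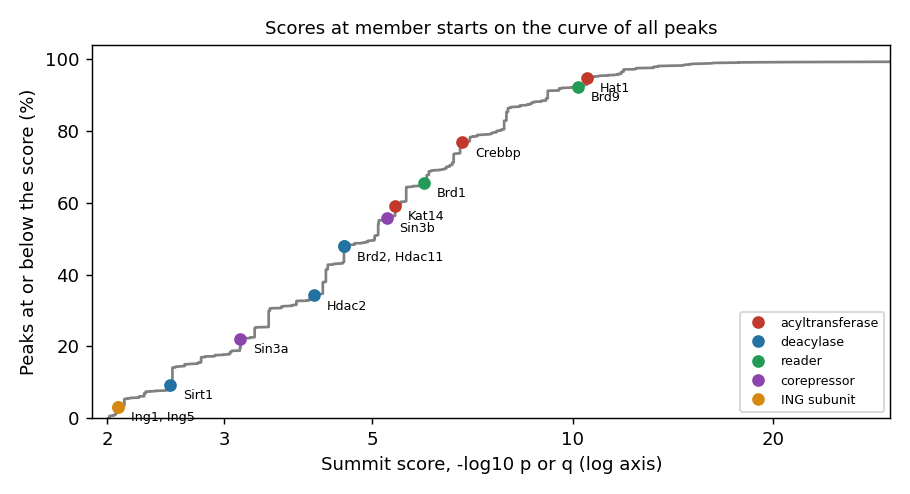
Share of all 2204 peaks (%) at or below each summit score (−log10 p or q, log axis), with the member summits closest to a start placed on that curve and coloured by role. The 3 deacylases lie below the median of 5.04 and the 3 acyltransferases above it, although the summit at Kat14 cannot be assigned to Kat14 or Pet117.

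Scores of the members spread widely, although none was above 10.5, a value that 7.21% of the peaks reached. They ran from 2.08 at Ing1 and Ing5 to 10.5 at Hat1 with a median of 4.54, and 6 of the 13 were above the list's median of 5.04. Those 6 were Hat1, Brd9, Crebbp, Brd1, Kat14 and Sin3b. They make up 3 of the 3 marked acyltransferases, 2 of the 3 readers, 1 of the 4 corepressor and ING genes and none (0) of the 3 deacylases. The Kat14, Brd9 and Brd1 summits also lay within 1 kb of starts of Pet117, Trip13 and Gm41377, so their scores cannot be assigned to the members alone. With peaks scoring at least 5 alone, 6 of the 52 members (11.5%) had a peak, and 5.82% of all protein-coding genes. The read depth behind each score is unknown, and differences between these single summits were not tested.

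**Figure D5:**
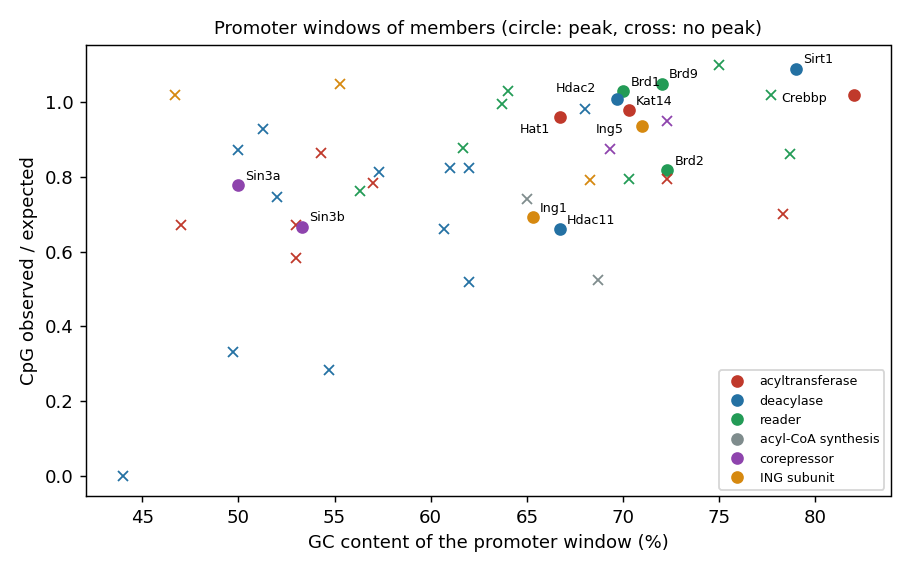
GC content (%) against the ratio of observed to expected CpG dinucleotides in 1 promoter window per gene, at the outermost start, for the 47 members with a window, coloured by role. The 13 genes with a peak (circles) all lie at a ratio of 0.660 or higher, and genes without a peak (crosses) reach down to Hdac9 at 0.

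The marked members had CpG-rich starts. In 1 window per gene, at the outermost start, the 13 genes with a peak had a median GC content of 70.0% (range 50 to 82.0) and a median of 35 CpG dinucleotides. The ratio of observed to expected CpG, which corrects the CpG count for base content, had a median of 0.962 (0.660 to 1.09). The highest ratio was at Sirt1 (1.09) and the lowest was at Hdac11. The 34 members without a peak had a median GC content of 61.3% and a median ratio of 0.805, with a range from 0 at Hdac9 to 1.10 at Brd3, so the groups overlap widely. All genes with a summit within 2 kb of a start had a median ratio of 0.842, and those without had 0.517.

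Because this list is rich in CpG-rich starts, the count was repeated on either side of a CpG ratio of 0.6. That split was chosen after seeing the data and does not match genes closely in composition. Of the genes with a ratio of at least 0.6, 17.3% had a summit within 2 kb of a start, against 2.30% of those below it. Of the members, 41 had a ratio of at least 0.6, and 13 of them (31.7%, interval 18.1 to 48.1) had a peak. The other 6 members had none (0). Whether base composition accounts for the members' share was not tested.

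Among 11 short motifs searched on both strands, the GC box bound by Sp and Klf factors, GGGCGG, was found in 12 of the 13 windows of marked genes, in 24 of the 34 of the other members in 46.3% of all 17492 windows and in 77.1% of the 1676 windows of genes with a summit within 2 kb of a start. In the printed sequences it stands as GGGCGG or CCGCCC, 7 times in Sirt1, with some copies overlapping. The ETS motif CCGGAAG was in 4 of 13 (Hat1, Brd2, Brd9 and Ing5), in 10 of 34, in 11.9% of all windows and in 16.3% of those with such a summit. The E-box CACGTG was in 2 of 13 (Hat1 and Sirt1, at 2 places in Sirt1) and in 2 of 34. It was in 7.91% of all windows and in 12.1% of those with such a summit. GCATGCGC, part of the palindromic NRF1 element, was in 1 of 13 (Brd2), in 3 of 34 and in 3.61% of all, and matches of it on both strands overlap in Brd2 and at the inner start of Ing1. AAGATGGC, a YY1 motif, was in 1 of 13 (Ing5), 2 of 34 and 3.21% of all. The CCAAT box was in 4 of 13, 18 of 34 and 39.2%, the CRE motif TGACGT in 1, 6 and 8.71%, and TATAAA in 1, 2 and 13.3%. TGTGGTT (RUNX) was in 0, 2 and 4.83%, GTAAACA (FOXO) in 0, 0 and 2.93%, and the Zbtb33-type motif TCTCGCGAG in 0, 1 and 1.03%. Such matches describe these letters in these windows and are not binding sites.

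Further subunits of the same complexes, from a list of 92 genes that overlaps with none of the members, were set beside them. In that list 20 (21.7%, interval 13.8 to 31.6) had a peak, again beside 11.4% of protein-coding genes. By complex, this was 6 of 20 for the SAGA and ATAC acetyltransferase complexes, 4 of 13 for SIN3 complexes, 3 of 24 for MYST complexes, 2 of 13 for NuRD, CoREST and NCoR, 4 of 19 for other bromodomain and YEATS proteins and 1 of 3 for coactivators with acyltransferase activity.

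The SIN3 group held Rbbp4, a histone-binding subunit also found in NuRD, with a summit 12 bp upstream of its start (7.70), and Sinhcaf, also called Fam60a, with a summit 14 bp downstream of a start (4.22). The SAGA and ATAC group held Atxn7l3, a subunit of the SAGA deubiquitinase module (7.66, 595 bp upstream), and Dr1, an ATAC subunit with a histone fold (3.51, 161 bp downstream). Taf6l (6.53) is also counted there, but its summit was 11647 bp from its start and nearer to an end of Tmem179b. In the MYST group the genes were Phf20 (10.5, 320 bp downstream), a methyl-lysine reader of the complex of Kat8, Mrgbp (4.29, 1666 bp downstream) and Epc2 (3.79, 204 bp upstream), both of the TIP60 complex.

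The other groups held Tbl1xr1, an exchange factor of NCoR (7.05, 634 bp upstream), and the bromodomain proteins Trim24 (8.0, 122 bp upstream) and Phip (5.41, 188 bp downstream). Gatad2a of NuRD (6.80) was counted through a summit nearer to an end of Tssk6. Of the 16 partner genes with a peak and a listed start, 13 had the summit within 2 kb of it, and 3 (Taf6l, Gatad2a and Phf12) had a summit near an end of another gene.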

How the data were processed

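The series measured H3K9bhb by ChIP-seq in 1 library, with 1 input library, sequenced as paired 150 bp reads. The submitters' processing notes name MACS2 2.1.2, Bowtie2 2.3.5, Trimmomatic 0.39, FastQC 0.11.8 and build mm10, without roles; for settings and the use of the input, the sources used here give nothing. The deposited file gives 1 bp summits with the authors' −log10 p or q value, called the score; which of the 2 is not given. It was used only to rank and filter peaks, and depth behind a peak is unknown.

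All 2315 summits were set against RefSeq genes of GRCm38.p6 (21900 protein-coding), which give no exons; starts came from the RefSeq promoter table (17492 of these genes). All 52 members and 92 partner genes matched, 1 by an older symbol. Shares have exact Clopper-Pearson intervals at 95%. The counting code was tested on simulated summits. Members, lists and the design were chosen with earlier results of these data known. Every member with a peak is named, members without a peak are given by role with distances, and of the partners the 15 with the highest scores were to be named; a few are in the counts without being reported here, and Phf12 was named after its value was seen. Alternatives covered flanks, windows, score thresholds, assignment to the nearest gene end, and 1 summit per peak. The software was scipy 1.17.1, pandas 2.3.3, numpy 2.4.6, matplotlib 3.10.9 and Python 3.11.15.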

Additional observations from a re-analysis of the deposited data

How the results depend on the processing

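The 13 members with a peak (25%) remained the same 13 genes with flanks of 2 kb and 10 kb, where 10.7% and 13% of all protein-coding genes had one. The same held for 2 kb windows around gene ends or starts, for 1 summit per peak and for assignment to the nearest gene end. Of all 21900 protein-coding genes, 9.4%, 7.65%, 11.4% and 9.26% had a peak in these settings, in that order. With assignment to the nearest gene end, Brd9 was kept only by its weaker summit (3.08). Its start summit (10.2) was nearer to an end of Trip13. With summits inside the gene alone, Crebbp, Ing5 and Sirt1 were lost and 10 were left (19.2%), beside 8.71% of all protein-coding genes. Brd9 was again kept only by its weaker summit (3.08), since its start summit lies outside the gene. Stricter scores use fewer peaks and gave fewer genes. In the upper 50% of peaks by score, and equally with scores of at least 5, 6 members (11.5%) had a peak. Among them were 0 deacylases and 1 corepressor or ING gene. The count of all protein-coding genes was 1263 (5.77%) and 1274 (5.82%) in these settings, and that of the 92 partner genes 11 (12%) in both. Around starts alone 13 of the 92 partner genes (14.1%) had a peak, beside 7.65% of all 21900 protein-coding genes. This partner count is lower than 20 because 4 have no listed start and 3 have their summit farther than 2 kb from theirs. The counts of acyltransferases and of readers were 2 or 3 in each of these settings. With 1 ChIP library no result has a replicate, and no paired analysis was possible because each group holds 1 sample. Role counts of 2 to 18 genes give wide intervals, so roles cannot be ranked.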
